A study of Mus musculus with 8 samples.

Results

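A group of 9 transcription factors that set macrophage and dendritic cell identity was followed in RNA-seq of mouse bone marrow-derived macrophages (BMDMs): Spi1, Cebpa, Cebpb, Maf, Irf4, Irf5, Irf8, Zbtb46 and Runx1. They were chosen by symbol, and all 9 were found among the 53735 rows of each of the 2 count tables and passed the filter on low counts. The study addressed the role of MKL1, a coactivator of serum response factor, in aortic aneurysm. Its WT macrophages had the genotype Mkl1+/+, Apoe-/- and its KO macrophages the genotype Mkl1-/-, Apoe-/-, with Mkl1 deleted in the whole animal. All came from male mice of C57BL/6J background, 6 months old. WT control mice came from the same litters or from matings of siblings. Every mouse, WT and KO alike, lacked Apoe and had received angiotensin II (Ang II) for 7 days at 1.44 mg/kg/day from an implanted pump, so neither a saline group nor an Apoe+/+ group enters these comparisons. Marrow was then differentiated to macrophages in culture for 7 days. The 8 libraries fell into 2 experiments, the first with WT 1, WT 2, KO 5 and KO 6 and the second with WT 3, WT 4, KO 7 and KO 8, and each experiment was compared on its own.

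PU.1, the ETS factor encoded by Spi1, opens the enhancers of myeloid genes and is required for macrophages to form. It works beside C/EBPα (Cebpa), which carries progenitors into the granulocyte and monocyte lineage, C/EBPβ (Cebpb), which serves later maturation and inflammatory genes, and RUNX1, which acts early in blood formation. IRF8 and IRF4 bind with PU.1 at composite sites in monocytes and dendritic cells, IRF5 drives inflammatory cytokine genes, MAF marks resident macrophages, and ZBTB46 marks classical dendritic cells.

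The libraries held 33977799 to 41584540 counts, of which at least 99.95% fell in the 15618 genes tested. Levels are given as CPM, counts scaled to a common library size with factors from the trimmed mean of M values (TMM). Mkl1 was 25.7 and 27.1 CPM in WT against 19.3 and 20.7 CPM in KO in experiment 1, and 26.9 and 29.7 against 14.6 and 10.5 CPM in experiment 2, so its reads were fewer in KO but far from absent. Counts per gene do not tell which exons these reads came from. In KO aortas the paper reported loss of MKL1 by immunostaining, Western blot and qRT-PCR, and it also assayed Mkl1 in BMDMs by qRT-PCR. The groups did not pair by genotype. Over all tested genes, the SD of the log2 difference between group means was 0.43 for WT of experiment 1 against KO of experiment 2, and 0.87 to 1.10 for the other 5 pairs. The 12 macrophage markers summed to 23370 to 42870 CPM, and all but F13a1, at 5.09 and 5.00 CPM in KO 5 and KO 6 and 0 to 0.77 CPM elsewhere, were at 19.8 CPM or more in every library. Fibroblast markers summed to 176.2 to 232.3 CPM in KO of experiment 1 and to 2.19 to 12.1 CPM elsewhere. In that KO group 7 of 7 tested markers were called higher, against 26.8% of all tested genes. In experiment 2 edgeR called 0 of the 7, with 1 at an unadjusted p under 0.05 (Postn). DESeq2 called 1, as did edgeR in a fit over all 8 libraries. Of 13 dendritic cell markers, 10 stayed below 1 CPM in every library, among them Flt3 and Clec9a, and Fcer1a was at 0. Their sum was 44.9 to 63.1 CPM in KO of experiment 1 and WT of experiment 2 against 8.68 to 10.7 CPM in the other groups. Itgax (19.0 to 46.9 CPM) and Clec10a (6.75 to 35.3 CPM) made up most of the higher sums. Of the 5 markers tested, Clec10a, Itgax and Kit were called higher in KO of experiment 1, against 26.8% of all tested genes. Itgax was called lower in KO of experiment 2, against 8.00% of all tested genes. Summed markers ranged over 90 to 236.6 CPM for plasmacytoid dendritic cells, mostly Tcf4, and 10.6 to 95.3 CPM for erythroid cells and megakaryocytes, mostly Pf4. Those of granulocytes reached at most 14.1 CPM, of B cells 6.66 CPM, and of mast cells, basophils, T cells and NK cells less. The part of these other markers in the differences described here was not tested. In such bulk libraries, fewer cells of a type and less RNA per cell cannot be told apart. Nothing in the labels ties a library to an animal, so p-values measure only the spread between these libraries.

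Spi1, the most abundant of these factors per kilobase, was lower in KO in both experiments. It stood at 327.1 and 331.3 CPM in WT against 221.1 and 212.7 CPM in KO of experiment 1, and at 385.1 and 369.7 against 250.4 and 264.8 CPM in experiment 2. The 4 KO libraries thus all fell short of the 4 WT libraries. The log2 fold change was -0.62 ± 0.058 (SE) in experiment 1, with an adjusted p of 5.745e-05 by the quasi-likelihood F test of edgeR with Benjamini-Hochberg adjustment over all tested genes. In experiment 2 it was -0.55 ± 0.124, with an edgeR adjusted p of 0.0404. Over both experiments, with experiment as a term, it was -0.58 ± 0.074 (edgeR adjusted p = 0.00884), or 1.49-fold lower in KO. The call over both experiments held without each of the 8 libraries in turn (edgeR adjusted p from 0.0160 to 0.0471), but the call in experiment 2 alone was lost whenever WT 3, WT 4, KO 7 or KO 8 was left out (0.118 to 0.170). Spi1 is on chr2:91082390-91115756, forward strand (GRCm38, GENCODE M21), and no exon of another gene overlaps its own.

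**Figure D1:**
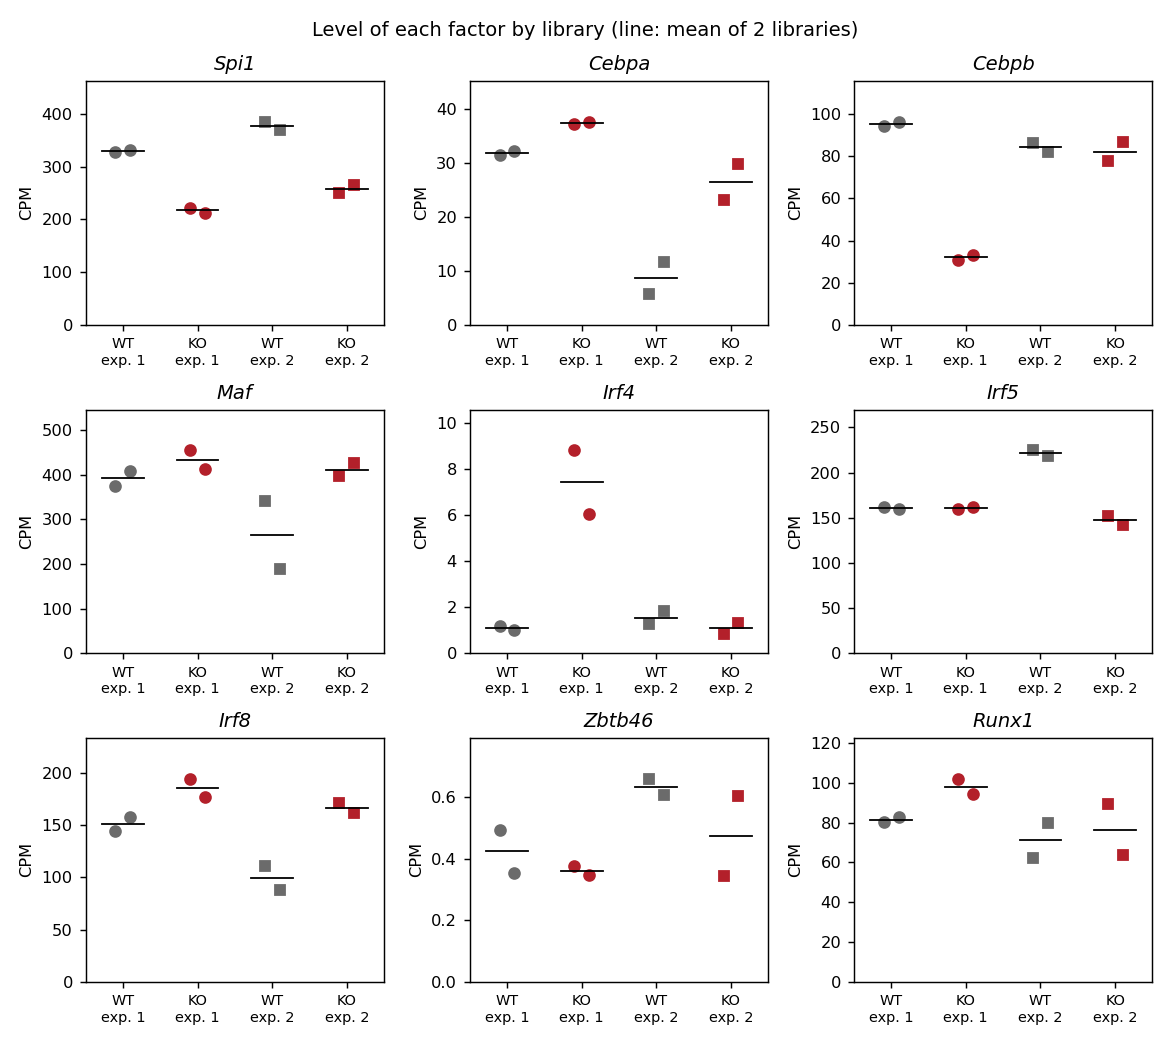
Level of each factor in CPM by library, with WT in grey, KO in red, circles for experiment 1, squares for experiment 2 and a line at the mean of 2 libraries. Spi1 was lower in every KO library, Cebpb fell to 31.0 and 33.3 CPM only in KO of experiment 1, where Irf4 reached 8.84 and 6.07 CPM, and Cebpa was at 5.69 and 11.5 CPM in WT of experiment 2.

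The C/EBP factors differed most in opposite groups. Cebpb, whose product serves macrophage maturation and cytokine genes, was 94.3 and 96.4 CPM in WT and 31.0 and 33.3 CPM in KO of experiment 1. The levels of experiment 2 were 86.4 and 82.2 CPM in WT and 77.6 and 86.7 CPM in KO. KO lay far below WT in the first experiment and overlapped it in the second. Cebpb was thus 3.00-fold lower in KO of experiment 1 (log2 -1.58 ± 0.065 SE, edgeR adjusted p = 1.383e-06), with a log2 difference of -0.04 ± 0.114 in experiment 2 (edgeR adjusted p = 0.851). The difference between the experiments was itself called, at 1.53 ± 0.121 on the log2 scale (edgeR adjusted p = 0.000222), and both calls held under every alternative run.

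Cebpa, needed for entry into the granulocyte and monocyte lineage, was 31.4 and 32.1 CPM in WT and 37.1 and 37.6 CPM in KO of experiment 1. In experiment 2 it was 5.69 and 11.5 CPM in WT and 23.1 and 29.7 CPM in KO. KO was above WT in each experiment, and the WT libraries of experiment 2 were the low ones, although they differed from each other by 2.03-fold. The log2 fold change was 0.22 ± 0.065 in experiment 1 (edgeR adjusted p = 0.0205) and 1.62 ± 0.358, or 3.07-fold, in experiment 2 (edgeR adjusted p = 0.0448). Over the alternatives the log2 fold change in experiment 2 ranged from 1.193 to 2.215. The first call was lost without WT 1, WT 2 or KO 6 (edgeR adjusted p = 0.119, 0.0689 and 0.0604), with DESeq2 (0.0808) and in a fit over all 8 libraries (0.508). The second was lost without WT 3, KO 7 or KO 8 (0.0662, 0.102 and 0.185) and without a filter on low counts (0.145). The difference between the experiments, 1.38 ± 0.385, had an edgeR adjusted p of 0.0242, and was lost without WT 1, WT 2, KO 5, KO 6 or KO 8 (0.0681 to 0.100).

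The ratio of Cebpa to Cebpb counts within a library needs no scaling between libraries, though it is a ratio of counts and not of levels per length. It was 0.33 in WT 1 and WT 2 and rose to 1.20 and 1.13 in KO 5 and KO 6. In experiment 2 it was 0.0658 and 0.140 in WT 3 and WT 4 and 0.298 and 0.343 in KO 7 and KO 8. KO lay above WT within each experiment, but KO of experiment 2 lay around WT of experiment 1.

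**Figure D2:**
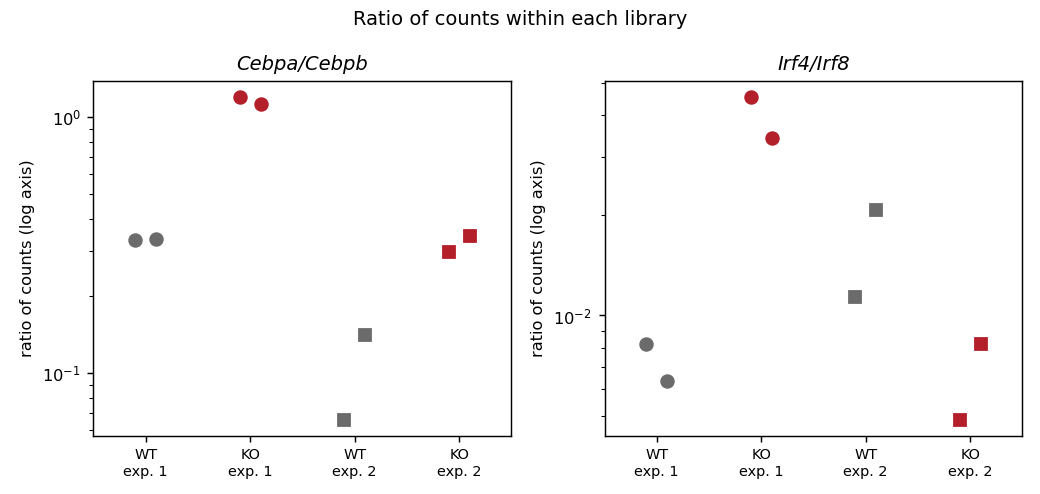
Ratio of counts within each library on a log axis, Cebpa to Cebpb at left and Irf4 to Irf8 at right, with WT in grey, KO in red, circles for experiment 1 and squares for experiment 2. Cebpa to Cebpb was higher in KO of each experiment, whereas Irf4 to Irf8 was 0.0454 and 0.0342 in KO of experiment 1 and no more than 0.0208 elsewhere.

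The 250 bases before the start of Cebpb and Cebpa are shown because these neighbours in function moved in different groups. They are the reference sequence from the RefSeq promoter table (GRCm38.p6), 5′ to 3′ on the gene's strand, at chr2:167688665-167688914 (+) and chr7:35119043-35119292 (+). Capitals mark a TATAAA match, found before Cebpa from 30 to 25 bases upstream. Cebpb held none of the motifs searched, and G and C made up 81.6% of its window and 66.4% of that of Cebpa.
Cebpb: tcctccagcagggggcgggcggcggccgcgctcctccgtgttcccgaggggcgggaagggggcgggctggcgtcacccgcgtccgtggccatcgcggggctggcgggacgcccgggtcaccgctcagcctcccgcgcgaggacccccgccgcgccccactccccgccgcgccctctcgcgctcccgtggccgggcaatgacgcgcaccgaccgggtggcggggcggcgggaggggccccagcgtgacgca
Cebpa: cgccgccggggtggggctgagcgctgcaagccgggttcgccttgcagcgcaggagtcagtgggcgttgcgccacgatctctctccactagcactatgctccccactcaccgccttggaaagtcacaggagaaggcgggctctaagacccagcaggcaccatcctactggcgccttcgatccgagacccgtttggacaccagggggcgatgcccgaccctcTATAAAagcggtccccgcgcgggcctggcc

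Irf4, an IRF that binds with PU.1 and is known from dendritic cells and IL-4-activated macrophages, was 1.18 and 0.999 CPM in WT against 8.84 and 6.07 CPM in KO of experiment 1. In experiment 2 it was 1.26 and 1.82 CPM in WT and 0.831 and 1.33 CPM in KO. KO 5 and KO 6 stood above the other 6 libraries, which covered 0.831 to 1.82 CPM, or 34 to 63 counts each. The log2 fold change in experiment 1 was 2.74 ± 0.241 (SE), a 6.70-fold higher level (edgeR adjusted p = 4.203e-05), and in experiment 2 it was -0.51 ± 0.379 (edgeR adjusted p = 0.401). The experiments differed by -3.27 ± 0.461 on the log2 scale (edgeR adjusted p = 0.00158). The call in experiment 1 and that of the difference held under every alternative run, and the libraries with high Irf4 were those with summed fibroblast markers of 176.2 to 232.3 CPM. The part of that in the Irf4 level was not tested.

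Irf8, the IRF of monocyte and dendritic progenitors, was 144.4 and 157.6 CPM in WT against 194.7 and 177.4 CPM in KO of experiment 1, and 111.1 and 87.6 against 170.9 and 162.1 CPM in experiment 2. All 4 KO libraries lay above all 4 WT libraries. The log2 difference was 0.29 ± 0.071 in experiment 1 (edgeR adjusted p = 0.00917) and 0.75 ± 0.15, or 1.68-fold higher in KO, in experiment 2 (edgeR adjusted p = 0.0305). Over both experiments the log2 difference of 0.52 ± 0.128 missed the threshold (edgeR adjusted p = 0.0577), but passed it with DESeq2 (0.00512), upper-quartile scaling (0.0325) or a minimum of 10 counts in every library (0.0460). The call of experiment 1 was lost without WT 1 (0.0596) and in a fit over all 8 libraries (0.0829), and that of experiment 2 without any of WT 3, WT 4, KO 7 and KO 8 (0.0577 to 0.113).

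Irf5, which drives inflammatory cytokine genes, was 161.8 and 159.7 CPM in WT and 159.4 and 161.6 CPM in KO of experiment 1. In experiment 2 it was 224.9 and 218.6 CPM in WT and 151.6 and 142.5 CPM in KO. The WT libraries of experiment 2 stood above the other 6, which covered 142.5 to 161.8 CPM. The log2 difference was -0.02 ± 0.055 in experiment 1 (edgeR adjusted p = 0.807) and -0.59 ± 0.116, or 1.51-fold lower in KO, in experiment 2 (edgeR adjusted p = 0.0288). Without WT 3, WT 4, KO 7 or KO 8 the latter call was lost (0.0771 to 0.128). The difference between the experiments, -0.59 ± 0.107, was called (edgeR adjusted p = 0.00434) under every alternative run. An exon of Tnpo3 on the opposite strand shares 411 bases with exons of Irf5, and one of Tmem189 shares 312 bases with Cebpb. The library kit was stranded, but whether counting used the strand is not given in the sources used here.

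As ratios of counts, Irf4 to Irf8 was 0.00820 and 0.00634 in WT 1 and WT 2 and 0.0454 and 0.0342 in KO 5 and KO 6. It was 0.0114 and 0.0208 in WT 3 and WT 4 and 0.00486 and 0.00818 in KO 7 and KO 8, so KO was above WT in one experiment and below it in the other. Irf5 to Irf8 was 2.03 and 2.50 in WT of experiment 2 and 0.819 to 1.12 in the other 6 libraries.

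The windows before Irf4 and Irf8 are shown because both factors share sites with PU.1 and yet moved in different groups. They lie at chr13:30748983-30749232 (+) and chr8:120736108-120736357 (+) of the same build. Capitals mark TATAAA, from 26 to 21 bases upstream of Irf4 and from 31 to 26 bases upstream of Irf8, and, before Irf4, TTCCTC from 19 to 14 bases upstream, the PU.1 core GAGGAA read on the other strand.
Irf4: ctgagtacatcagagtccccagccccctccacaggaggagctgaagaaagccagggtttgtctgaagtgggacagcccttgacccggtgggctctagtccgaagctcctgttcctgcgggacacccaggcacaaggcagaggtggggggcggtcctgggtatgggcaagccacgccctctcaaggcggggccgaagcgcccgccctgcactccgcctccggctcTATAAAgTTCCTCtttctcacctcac
Irf8: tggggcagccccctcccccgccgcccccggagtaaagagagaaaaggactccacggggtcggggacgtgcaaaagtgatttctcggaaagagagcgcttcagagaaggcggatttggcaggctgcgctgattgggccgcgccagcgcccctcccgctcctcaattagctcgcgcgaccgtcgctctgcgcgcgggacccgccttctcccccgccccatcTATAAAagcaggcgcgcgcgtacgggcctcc

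The RefSeq table held 9 windows for 7 of these factors, with none for Spi1 or Maf, among 32851 windows of the same length in all. A set of 8 motifs was searched on both strands. GAGGAA stood in the windows of Irf4 and Runx1 and in 23.3% of all windows, and TATAAA in those of Cebpa, Irf4 and Irf8 and in 12.4% of all. The ETS-IRF composite GGAANNGAA, which can share the letters GGAA with the PU.1 core, was found in a Runx1 window (6.99% of all). It lay there from 55 to 47 and from 15 to 7 bases upstream, and the PU.1 core from 46 to 41, without shared bases. The MAF site TGCTGAC was found in the Zbtb46 window (3.81% of all). That window, chr2:181424389-181424638 (-), and the Runx1 window with these matches, chr16:92697330-92697579 (-), belong to RefSeq starts that lie inside the GENCODE M21 gene models and not at their outer ends. The Irf4 window, the other Runx1 window and a second Irf8 window also reach into their gene models. Positions upstream are counted from the RefSeq starts. The interferon response motif GAAANNGAA (7.13% of all), the C/EBP motif TTGCNNAA (9.56%), the RUNX motif TGTGGT (14.0%) and the CArG box, the element bound by serum response factor (1.47%), matched in none of the 9. These matches describe letters in the windows and no binding was measured.

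Maf, a factor of resident macrophages, was 374.8 and 407.8 CPM in WT and 454.8 and 411.5 CPM in KO of experiment 1. Experiment 2 gave 342 and 189.6 CPM in WT and 396.2 and 426.4 CPM in KO. WT 4 stood lowest and differed from WT 3 by 1.80-fold, and no call was made in experiment 1 (log2 0.13 ± 0.074, edgeR adjusted p = 0.171) or experiment 2 (0.63 ± 0.291, edgeR adjusted p = 0.206). With upper-quartile scaling, however, it was called higher in KO of experiment 1 (0.25, edgeR adjusted p = 0.0299). The difference between the experiments was called without WT 3 (0.97, edgeR adjusted p = 0.0043) and without a filter on low counts (0.49, edgeR adjusted p = 0.0168).

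Runx1 was 80.2 and 83.0 CPM in WT and 102.2 and 94.2 CPM in KO of experiment 1, and 62.2 and 79.9 against 89.2 and 63.6 CPM in experiment 2. KO was above WT in the first experiment (log2 0.25 ± 0.063, edgeR adjusted p = 0.00954, lost without WT 1 at 0.0574 and in a fit over all 8 libraries at 0.244) and overlapped it in the second (0.10 ± 0.209, edgeR adjusted p = 0.766). For Runx1 the difference between the experiments was not called (-0.16 ± 0.242, edgeR adjusted p = 0.623). Zbtb46 lay at 0.342 to 0.660 CPM throughout, or 12 to 25 counts per library. Its log2 difference was -0.26 ± 0.404 in experiment 1 (edgeR adjusted p = 0.620) and -0.42 ± 0.431 in experiment 2 (edgeR adjusted p = 0.545), and at this depth a change of that size was not detectable.

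**Figure D3:**
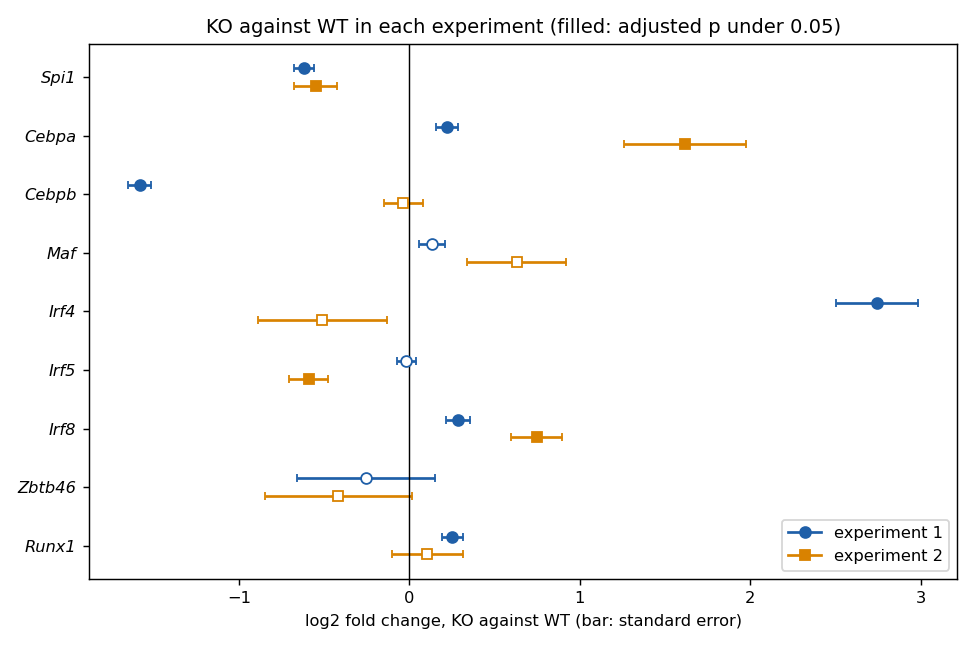
Log2 fold change of KO against WT for each factor, experiment 1 as blue circles and experiment 2 as orange squares, bars giving the standard error and filled symbols an adjusted p under 0.05. Spi1, Cebpa and Irf8 were called with 1 sign in both experiments, Cebpb, Irf4 and Runx1 in experiment 1 alone and Irf5 in experiment 2 alone. Of those called in 1 experiment alone, Runx1 was not called by the interaction test (edgeR adjusted p = 0.623).

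Across the 9 factors, 2 were called lower (Spi1, Cebpb) and 4 higher (Cebpa, Irf4, Irf8, Runx1) in KO of experiment 1, where 27.4% of all tested genes were called lower and 26.8% higher. In experiment 2, 2 were called lower (Spi1, Irf5) and 2 higher (Cebpa, Irf8), against 8.00% and 7.10% of all genes. Spi1 was the only factor called over both experiments, where 3.26% of genes were called lower and 3.59% higher. The median log2 fold change of the 9 was 0.13 in experiment 1 and -0.04 in experiment 2, against 0.02 and 0.00 for all genes, and the median size without sign was 0.26 and 0.55 against 0.42 and 0.36. Upper-quartile scaling moved the median of all genes in experiment 1 by 0.11 and the share of calls that were higher from 49.4% to 61.1%, and that over both experiments from 52.4% to 65.0%. Spi1, Cebpa and Irf8 were called in 1 direction in both experiments (4.04% of genes) and 0 in opposite directions (5.92%). Spi1 and Irf8 were the 2 factors with every KO library beyond every WT library, against 12.0% of genes. The edgeR interaction test called 4 of the 9 (Cebpa, Cebpb, Irf4, Irf5), against 39.8% of genes. For Spi1 it gave 0.05 ± 0.114 on the log2 scale (edgeR adjusted p = 0.749) and for Irf8 0.44 ± 0.173 (edgeR adjusted p = 0.0761, or 0.0145 without WT 3 and 0.0283 without a filter on low counts).

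Within 1 genotype, the factors differed between experiments too, and experiment, culture and mice cannot be told apart there. In WT, Cebpa was 3.69-fold lower (log2 -1.88 ± 0.283, edgeR adjusted p = 0.00291) and Irf8 1.52-fold lower (log2 -0.60 ± 0.123, edgeR adjusted p = 0.00984) in experiment 2 than in experiment 1, while Irf5 was 1.38-fold higher (log2 0.46 ± 0.075, edgeR adjusted p = 0.00405). These were 2 lower and 1 higher of 9, against 14.1% and 14.9% of genes, and Irf8 was lost without WT 2 (0.0778). In KO, Irf4 was 6.88-fold lower (log2 -2.78 ± 0.322, edgeR adjusted p = 0.00132), Cebpb 2.56-fold higher (log2 1.35 ± 0.087, edgeR adjusted p = 0.00025) and Spi1 1.19-fold higher (log2 0.25 ± 0.081, edgeR adjusted p = 0.0483) in experiment 2. That was 1 lower and 2 higher, against 16.1% and 17.4% of genes, of which upper-quartile scaling turned the share of higher calls from 52.0% to 38.5%. Some alternatives also called Cebpa and Runx1 between KO groups and Maf between WT groups. The Spi1 call held under 5 of 14 alternatives. It was lost with that scaling (0.185), without a filter on low counts (0.109), with a minimum of 10 counts in every library (0.069), in a fit over the 4 KO libraries alone (0.0896) and without WT 1, WT 2, KO 5, KO 6 or KO 8 (0.0950 to 0.229). Over the 9 factors, the root mean square log2 difference between group means was 0.19 for WT of experiment 1 against KO of experiment 2, and 0.75 to 1.28 for the other 5 pairs, the same nearest pair as over all genes.

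Among the other factors, the gene models of the same annotation lie at chr7:35119293-35121928 (+) for Cebpa, chr2:167688915-167690418 (+) for Cebpb, chr8:115682942-115707794 (-) for Maf and chr16:92601466-92826149 (-) for Runx1. The IRF genes lie at chr13:30749226-30766976 (+) for Irf4, chr6:29526625-29541871 (+) for Irf5 and chr8:120736358-120756694 (+) for Irf8, and Zbtb46 at chr2:181387762-181459426 (-). Levels between factors were compared as CPM per kilobase of exon. Spi1 was at 109.6 ± 24.8 CPM per kilobase (SD over 8 libraries), followed by Irf5 at 59.4 ± 10.7, Cebpb at 48.9 ± 17.4, Maf at 45.6 ± 9.98, Irf8 at 21.4 ± 5.03, Cebpa at 9.87 ± 4.46, Runx1 at 6.80 ± 1.15, Irf4 at 0.569 ± 0.609 and Zbtb46 at 0.0555 ± 0.0158. Ranges over the 8 libraries did not overlap between Spi1 and Irf5, Runx1 and Irf4, or Irf4 and Zbtb46, and overlapped for the other neighbours in this order. From the lowest to the highest library, CPM differed by 10.6-fold for Irf4, 6.61-fold for Cebpa, 3.12-fold for Cebpb, 2.40-fold for Maf and 2.22-fold for Irf8. The remaining 4 covered less than 1 on the log2 scale, where the median of all genes was 0.96.

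For Irf8, Cebpb, Maf and Cebpa, which spanned more, the genes with the most similar pattern were sought among 9071 genes by the root mean square difference of centred log2 CPM over the 8 libraries. Irf8 was followed most closely, by Slc6a6, a taurine transporter (0.054), Zfp467 (0.072) and Cttnbp2nl (0.082). Slc6a6 was 1204 and 1243 CPM in WT 1 and WT 2, 1550 and 1440 in KO 5 and KO 6, 879.5 and 756 in WT 3 and WT 4, and 1428 and 1420 in KO 7 and KO 8. Cebpb was nearest to Plagl2 (0.11), Setd8, a histone H4 methyltransferase (0.13), and Eef1e1 (0.13), and Maf to Pld4, a lysosomal exonuclease (0.11), Zbtb34 (0.12) and Ncoa1 (0.13). The nearest genes were farther away for Cebpa, with Eef2k, Arl4c and Il16 at 0.27 to 0.31. These distances are not scaled to how far each factor varied, so they do not rank the factors.

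**Figure D4:**
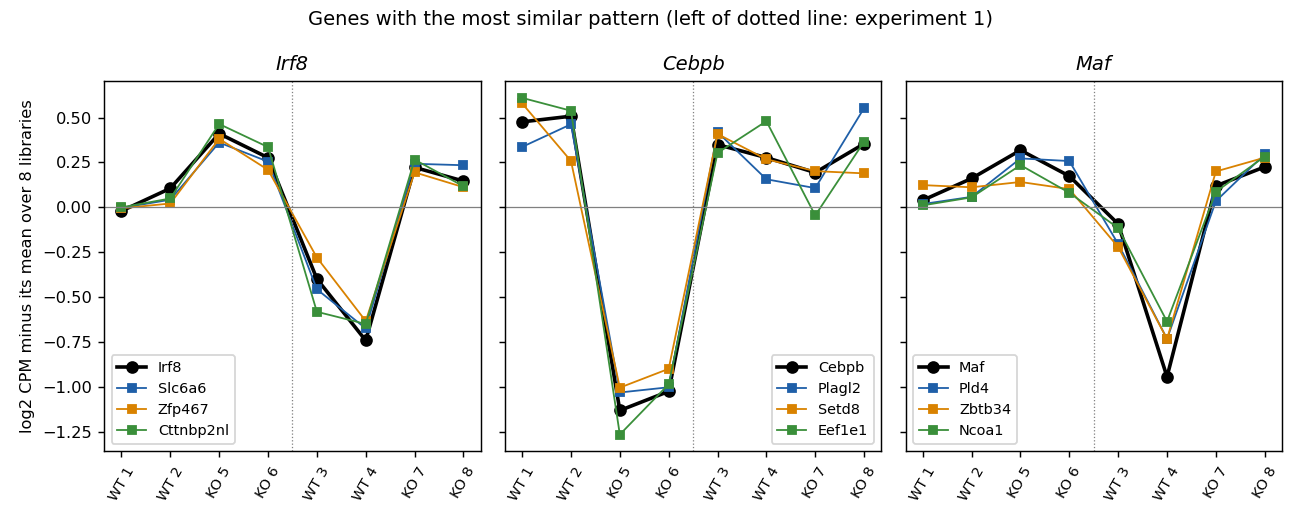
Log2 CPM minus its mean over the 8 libraries for Irf8, Cebpb and Maf (black) and the 3 genes nearest to each, with experiment 1 left of the dotted line. Irf8 and its nearest genes dip together in WT 3 and WT 4, Cebpb and its nearest genes in KO 5 and KO 6, and Maf and its nearest genes in WT 4. The genes were chosen for closeness over these same 8 libraries, so the shared dips follow from that choice.

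Of 37 other lineage factors, a list chosen with earlier results of these data known, 36 were tested. In experiment 1, 14 were lower, 13 higher and 9 not called in KO, against 27.4% of all tested genes lower and 26.8% higher, with a median log2 fold change of 0.01 (0.08 with 1 gene at the floor of 3 counts set to its bound). In experiment 2, 8 were lower, 9 higher and 19 not called, against 8.00% and 7.10% of all genes, with a median of -0.14. Leaving out WT 3, WT 4, KO 7 or KO 8 brought the calls in experiment 2 to 6, 11, 5 and 5. Cebpd, a C/EBP of acute inflammation, fell with Cebpb in experiment 1, by 1.73 ± 0.059 on the log2 scale (edgeR adjusted p = 6.419e-07), and Cebpg fell by 0.94 ± 0.059 (edgeR adjusted p = 7.568e-06). Irf7, of the interferon response, was 4.96-fold higher (edgeR adjusted p = 2.72e-06). In experiment 2, Irf1 was 8.47-fold lower in KO (edgeR adjusted p = 0.00219), at 405.5 and 437.7 CPM in WT 3 and WT 4 against 43.7 to 97.1 CPM in the other 6 libraries. Klf4, a monocyte factor, was 8.03-fold higher (edgeR adjusted p = 0.00316) and Relb, an NF-κB subunit, 4.03-fold lower (edgeR adjusted p = 0.00351). In experiment 1 Irf1 was 2.04-fold higher and Klf4 2.14-fold lower in KO (edgeR adjusted p = 1.066e-05 and 6.013e-05), the reverse of experiment 2, while Relb was 1.77-fold lower there too (edgeR adjusted p = 0.000141).

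**Figure D5:**
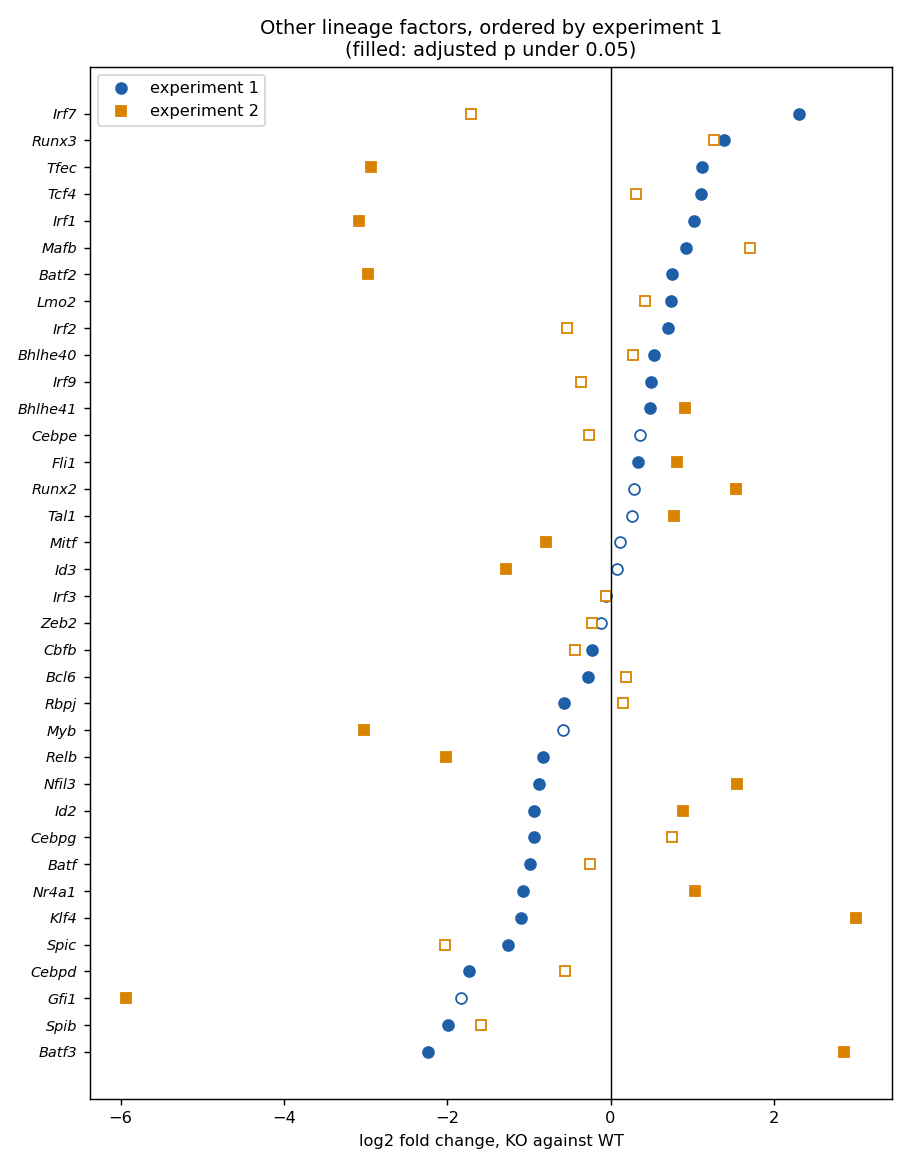
Log2 fold change of KO against WT for the 36 other lineage factors tested, ordered by experiment 1 (blue circles), with experiment 2 as orange squares and filled symbols for an adjusted p under 0.05. Irf1 and Klf4 have filled symbols on opposite sides of 0 in the 2 experiments, and Relb on the lower side in both.

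Genes known as targets of these factors were read as lists, some genes standing in 2 of them, and no binding was measured. The lists were chosen with earlier results of these data known, so their counts are described and not tested against all genes. Each count reads against the share of all tested genes called, 27.4% lower and 26.8% higher in experiment 1 and 8.00% lower and 7.10% higher in experiment 2, and each median against 0.02 and 0.00 for all genes. Of 12 PU.1 targets, 5 were lower and 4 higher in KO of experiment 1 (median log2 -0.28) and 4 lower and 1 higher in experiment 2 (median -0.10). Itgam, the integrin αM, was 2.07-fold lower in experiment 1 (edgeR adjusted p = 4.863e-06) and 2.53-fold higher in experiment 2 (edgeR adjusted p = 0.0338). Csf1r, the receptor of the macrophage growth factor M-CSF, was 1.74-fold higher in experiment 1 (edgeR adjusted p = 0.000994) and 2.43-fold lower in experiment 2 (edgeR adjusted p = 0.0281), and Mrc1, the mannose receptor, was 3.71-fold higher in experiment 1 (edgeR adjusted p = 6.576e-06). Msr1, a scavenger receptor also known as a C/EBPβ target, was 1.92-fold lower in experiment 1 (edgeR adjusted p = 0.000247, or 0.117 in a fit over all 8 libraries). In experiment 2, Cybb, a subunit of the phagocyte oxidase, was 3.27-fold lower and Cd14, the coreceptor for lipopolysaccharide, 2.78-fold lower in KO (edgeR adjusted p = 0.0271 and 0.0301). Without WT 3, WT 4 or KO 8, edgeR called 0 of the 12 in experiment 2 (5 or 6 at an unadjusted p under 0.05), and without KO 7 it called 3.

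Of 7 C/EBPβ targets tested, 6 were lower and 1 was higher in KO of experiment 1, and 3 were lower in experiment 2, where 27.4% and 8.00% of all genes were lower. Their log2 fold changes had a median of -4.54 in experiment 1, or -3.83 with 2 genes at the floor set to their bound, and -0.11 in experiment 2. Ptgs2, the inducible cyclooxygenase, was 84.8 and 57.2 CPM in WT and 3.03 and 3.14 CPM in KO of experiment 1, and 175.9 and 170.6 against 19.5 and 12.0 CPM in experiment 2. Ptgs2 was 23.3-fold and 11.0-fold lower in KO (edgeR adjusted p = 0.000444 and 0.00465), the first lost without KO 5 or KO 6 (up to 0.0855), while Cebpb was called in experiment 1 alone. Il6 was 1.26 and 0.94 CPM in WT and 1 count in each KO library of experiment 1, and 11.6 and 2.74 CPM in WT against 0.293 and 0.482 CPM in KO of experiment 2, the latter call lost without KO 7 or KO 8, with limma-voom and without a filter on low counts (adjusted p up to 0.187). Il13ra1, an IL-13 receptor chain, was 2.66-fold higher in experiment 1 and 4.75-fold lower in experiment 2 (edgeR adjusted p = 2.301e-05 and 0.00583).

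Of 9 MAF targets, 5 were higher and 1 was lower in experiment 1, with a median log2 of 1.44 (1.03 with 1 gene at the floor set to its bound), and 1 was higher and 1 lower in experiment 2 (median -0.58), where 26.8% and 7.10% of all genes were higher and 27.4% and 8.00% lower. Axl, a receptor for apoptotic cells, was 7.93-fold higher in experiment 1 and 6.45-fold lower in experiment 2 (edgeR adjusted p = 2.345e-06 and 0.0479). The latter call was lost without KO 7 or KO 8 and without a filter on low counts. Axl was 436.9 and 139 CPM in WT 3 and WT 4, and its log2 difference in experiment 2 ranged from -3.29 to -1.64 over the alternatives. C1qb, a chain of complement C1q, was 2.72-fold higher in experiment 1 (edgeR adjusted p = 3.137e-05), and C1qa, another chain, had a log2 difference of -1.02 ± 0.336 in experiment 2 (edgeR adjusted p = 0.109). Cd5l, a secreted macrophage protein, was 5.91-fold higher in experiment 2 (edgeR adjusted p = 0.00628, or 0.0534 without KO 8). No edgeR call of experiment 2 among the 9 held without KO 8. With all libraries DESeq2 called 5, a count for which the edgeR shares above are no background.

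Of 8 IRF5 and IRF8 targets tested, 4 were lower and 2 higher in experiment 1 (median log2 -0.99, or -0.70 with 2 genes at the floor set to their bound) and 6 were lower in experiment 2 (median -2.65), where 27.4% and 8.00% of all genes were lower and 26.8% and 7.10% higher. Tnf was 325.5 and 295.3 CPM in WT against 20.1 and 26.5 CPM in KO of experiment 1, and 1414 and 1636 against 128.3 and 124.2 CPM in experiment 2. Tnf was 13.5-fold and 12.1-fold lower in KO (edgeR adjusted p = 2.012e-05 and 0.00217). Cst3, which encodes cystatin C, was 2.42-fold higher in experiment 1 and 2.35-fold lower in experiment 2 (edgeR adjusted p = 6.664e-06 and 0.0244, the latter lost without WT 3, WT 4 or KO 8 at up to 0.104). Slc11a1, a phagosomal metal transporter, was 2.89-fold lower in experiment 1 (edgeR adjusted p = 2.394e-05). Il12b, the p40 chain of IL-12, was 15.3 and 5.60 CPM in WT 3 and WT 4 and at 1 and 0 counts in KO 7 and KO 8, a call lost without KO 7 or KO 8 and with limma-voom (adjusted p up to 0.0824). Ciita, the master regulator of MHC class II genes, was 0.197 and 0.353 CPM in WT 1 and WT 2, 18.3 and 10.7 in KO 5 and KO 6, 20.0 and 17.6 in WT 3 and WT 4, and 0.269 and 0.0723 in KO 7 and KO 8. Like the dendritic cell marker sum, made up mostly of Itgax and Clec10a, it was high in KO of experiment 1 and in WT of experiment 2. Of 5 IRF4 targets tested, 2 were higher and 1 lower in experiment 1 (median log2 -0.54, or -0.20 with 1 gene at its bound) and 4 were lower in experiment 2 (median -3.07), to be read against the same shares. Mgl2, a lectin of IL-4-activated macrophages, was 3.13 and 2.60 CPM in KO 5 and KO 6 against 0.0987 and 0.0294 CPM in WT 1 and WT 2, and 1.84 and 0.837 CPM in WT 3 and WT 4 against 0.244 and 0.0965 CPM in KO 7 and KO 8, the second call being lost without WT 3, KO 7 or KO 8 and with limma-voom (adjusted p up to 0.162). Ccl22, a chemokine, was 5.14 and 3.93 CPM in WT 3 and WT 4 and at 0 in KO 7 and KO 8. Prdm1, which encodes BLIMP1, was 1.74-fold and 8.40-fold lower in KO (edgeR adjusted p = 0.00518 and 0.00582, the latter 0.0510 without KO 8). Without KO 8, 2 of the IRF5 and IRF8 targets and 2 of the IRF4 targets were called in experiment 2, and 1 of the latter was called in either experiment when 10 counts were required in every library.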

How the data were processed

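Total RNA of cultured BMDMs was sequenced from libraries made with a stranded mRNA kit. The authors deposited a table of raw read counts per gene for each experiment, and the submitters' processing notes name STAR 2.7.0f, Subread 1.6.4 with featureCounts, DESeq2 1.22.1 and GRCm38 without their roles. The annotation and the strand setting are not given in the sources used here. Tables of normalized counts were not used because each experiment had been scaled on its own.

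Genes were kept by filterByExpr over the 4 groups of experiment and genotype, which left 15618. Counts were tested with the quasi-likelihood F test of edgeR 4.0.16 (R 4.3.3, TMM scaling, robust dispersion) with Benjamini-Hochberg adjustment over all of them and a threshold of 0.05. Standard errors were taken as the size of the log2 fold change over the root of its F. Experiments were fitted alone, together with experiment as a term, with an interaction, and, for experiment 2 against experiment 1, as 4 groups. Alternatives used DESeq2 1.42.0, limma 3.58.1 (voom), upper-quartile scaling, other filters, other sets of libraries and each library left out. A value set to its bound used a floor of 3 counts per library. Scripts were tested on simulated data.

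Named were all 9 factors, Mkl1, the 3 genes of the other lineage factor list and of each target list with the smallest p in each experiment and the 3 genes with the most similar pattern. The genes nearest to Irf4 are not reported here. Cell type markers and values of a listed gene in the other experiment were named after their values were seen. The factors and lists were chosen with earlier results of these data known. For the lists, the alternatives were chosen after seeing the data. Counting error limits Zbtb46 and Irf4 most. Exon lengths came from GENCODE M21.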

Additional observations from a re-analysis of the deposited data

Results flagged for a closer look

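Among 20 sets of 4 libraries (the 9 factors and Mkl1 in each genotype), 2 held a library far from the other 3, and chance gives about 1 in 20. Zbtb46 was 0.603 CPM in KO 8 against 0.342 to 0.375 CPM in the other KO libraries. Runx1 was 62.2 CPM in WT 3 against 79.9 to 83.0 CPM in the other WT libraries.

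By the edgeR interaction test, KO against WT differed between the experiments for 5 of these 10 genes, against 39.8% of all tested genes. Differences are given as the log2 fold change in experiment 2 minus that in experiment 1. The difference was -0.77 for Mkl1 (edgeR adjusted p = 0.0245), 1.38 for Cebpa (0.0242), 1.53 for Cebpb (0.000222), -3.27 for Irf4 (0.00158) and -0.59 for Irf5 (0.00434). The call for Cebpa was lost without WT 1, WT 2, KO 5, KO 6 or KO 8 (0.0681 to 0.100).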

How the results depend on the processing

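No paired analysis was possible because WT and KO share no replicate numbers. Of the single-gene tests under other settings, 606 kept direction and side of the threshold, 41 lost the call, 15 gained one and 13 changed sign, none of those 13 called. Without 1 library at a time, 3 to 6 factors were called in experiment 1, 0 to 1 in experiment 2, 1 over both experiments, 3 to 6 for the interaction, 2 to 4 between WT groups and 2 to 4 between KO groups, a lone library being assumed to vary like the other groups. The lowest count of experiment 1 came without WT 1, and in experiment 2 only the fit without WT 4 kept a call, that of Cebpa, while those without WT 3, KO 7 or KO 8 had 5, 4 and 4 factors at an unadjusted p under 0.05. In experiment 1 a fit over all 8 libraries called 3 (Spi1, Cebpb, Irf4). Over both experiments, DESeq2, upper-quartile scaling and a minimum of 10 counts each called 2, adding Irf8, and leaving out the experiment term called 0 (3 at an unadjusted p under 0.05, 4 called of all genes, Spi1 at an edgeR adjusted p of 0.153).

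On the log2 scale, signs changed with upper-quartile scaling for Irf5 in experiment 1 (0.0954), Cebpb in experiment 2 (0.00043) and Spi1 in the interaction (-0.0093), and with a minimum of 10 counts for Irf5 in experiment 1 (0.0158). Leaving out 1 library gave, for Zbtb46, -0.464 to 0.0146 in experiment 1, -0.642 to 0.173 in the interaction and -0.0748 to 0.744 between KO groups, for Runx1, -0.157 to 0.328 in experiment 2 and -0.422 to 0.0606 in the interaction, and for Cebpb, -0.12 to 0.0437 in experiment 2. The cause was not tested.

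Over all genes, calls over both experiments numbered 1070, but 2557 with DESeq2, 4 without the experiment term and 231 to 1128 without 1 library. In experiment 2 they numbered 2358, but 4955 in a fit over all 8 libraries and 293 to 1166 without 1 library. Without 1 library, the interaction gave 4182 to 6672 (6217 with all), WT groups 1708 to 5253 (4533) and KO groups 1741 to 5706 (5240).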

Other observations

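Mcpt8, a basophil protease singled out after its values were seen, was 1.15 and 1.26 CPM in KO 5 and KO 6 and at 0 counts in the other 6 libraries. Of the 12 macrophage markers, 3 were lower and 7 higher in KO of experiment 1 (median log2 0.61) and 2 were lower and 3 higher in experiment 2 (median -0.11), where 27.4% and 8.00% of all genes were lower and 26.8% and 7.10% higher. Among them, Adgre1, which encodes the macrophage marker F4/80, was 4.39-fold lower in KO of experiment 1 (edgeR adjusted p = 4.857e-06) and 1.88-fold higher in KO of experiment 2 (edgeR adjusted p = 0.0246), a call lost without each of WT 3, WT 4, KO 7 and KO 8 (up to 0.129). Itgax, the integrin αX shared by dendritic cells and macrophages, was 8.50-fold higher in KO of experiment 1 and 30.7-fold lower in KO of experiment 2 (edgeR adjusted p = 0.000734 and 0.00452).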
